A study of Mus musculus with 12 samples.

Results

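The genes described here build the motile cilia of the airway epithelium, in whole lung from mice given recombinant human PBEF (rhPBEF), mechanical ventilation or both. They were 34 named genes: the transcription factor Foxj1, structural parts of the ciliary shaft, proteins that assemble or transport those parts, and other genes typical of ciliated cells. A gene counted as measured when at least 1 probe set was annotated to its symbol and to no other, and its probe set with the highest mean over all arrays was used. By that rule 32 of the 34 genes were measured, through 46 probe sets, out of 18193 genes with such a probe set in all. Of the 32, 29 lay above the filter on low levels and were tested among 12921 genes.

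The RNA came from lungs of mice 8 to 12 weeks old, and 12 Affymetrix arrays were run, 3 for each of 4 groups. Controls were given phosphate-buffered saline (PBS). The ventilation group (labelled VALI, ventilator-associated lung injury) was ventilated for 4 hours at 30 ml/kg, a large breath that stretches the lung. The rhPBEF group received 20 µg of the protein per mouse into the trachea, in 1.5 µl of water per g of body weight, and the last group received rhPBEF and ventilation together. PBEF is the secreted form of the enzyme Nampt. Ventilation was studied at a single tidal volume. The labels give neither strain nor sex, nor the time from instillation to collection, nor whether ventilated mice were given saline. They do not say that replicates were separate mice, and the p-values therefore reflect only how far these arrays spread, which may be technical.

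A motile cilium is a bundle of paired microtubules, the axoneme, with a ring of outer pairs around a central pair. Dynein arms on the outer pairs slide them against each other, radial spokes and the central pair set the rhythm, and tektins stiffen the tubule walls. In the airway, ciliated cells beat mucus towards the throat. Foxj1 and the RFX transcription factors switch on the genes that build these cilia.

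Tissue identity was checked first. The alveolar genes Sftpc and Ager and the club cell gene Scgb1a1 stood at or above percentile 99.9 of the probe sets on every array. Tppp3, a ciliated cell gene, stood at or above percentile 97.0, Dynlrb2 at or above 81.7 and Foxj1 at or above 71.4. Values are log2 levels, and levels of different probe sets are not compared. The median of all arrays lay between 7.0 and 7.07. Lung is a mixed tissue, so fewer ciliated cells and less RNA per ciliated cell cannot be told apart.

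Cilia genes were mostly lower in each treated group than in control, by small amounts. With the combined treatment 5 of the 29 tested genes fell, namely Rsph4a, Tekt4, Dnaaf1, Tppp3 and Tekt2, and none rose (limma, adjusted p under 0.05 over all genes tested). That share of 17.2% stood beside 8.79% of all genes past the threshold in either direction and 4.86% past it in the lower direction. With rhPBEF alone 0 of 29 passed, against 1.22% of all genes, and with ventilation alone 0 of 29, against 0.00774%. At an unadjusted p under 0.05, 15 of the 29 (51.7%) passed for ventilation, beside 15.5% of all genes tested, and 9 (31.0%) for rhPBEF, beside 18.3%, all of them lower. For the combined treatment 8 did (27.6%), close to the 27.5% of all genes.

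The median difference of the 29 genes was -0.23 on the log2 scale for rhPBEF, -0.25 for ventilation and -0.21 for both. Over all genes tested the medians were -0.07, -0.04 and -0.06. Single genes lay below 0 in 29, 28 and 27 cases of 29, and 65.7%, 59.0% and 61.8% of all genes did so. The exceptions were Foxj1 in ventilation (0.14) and Ccdc39 (0.02) and Cdhr3 (0.01) in the combined treatment. These comparisons share the 3 control arrays, so they are not independent of each other.

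Separation of single arrays was also counted. All 3 ventilated arrays lay below all 3 control arrays for 18 of the 29 genes, or 62.1%, beside 15.5% of all genes tested. For rhPBEF this held for 9 genes (31.0%, beside 24.0% of all genes), and for the combined treatment for 11 genes (37.9%, beside 24.4%). The gap to the background was widest for ventilation.

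**Figure D1:**
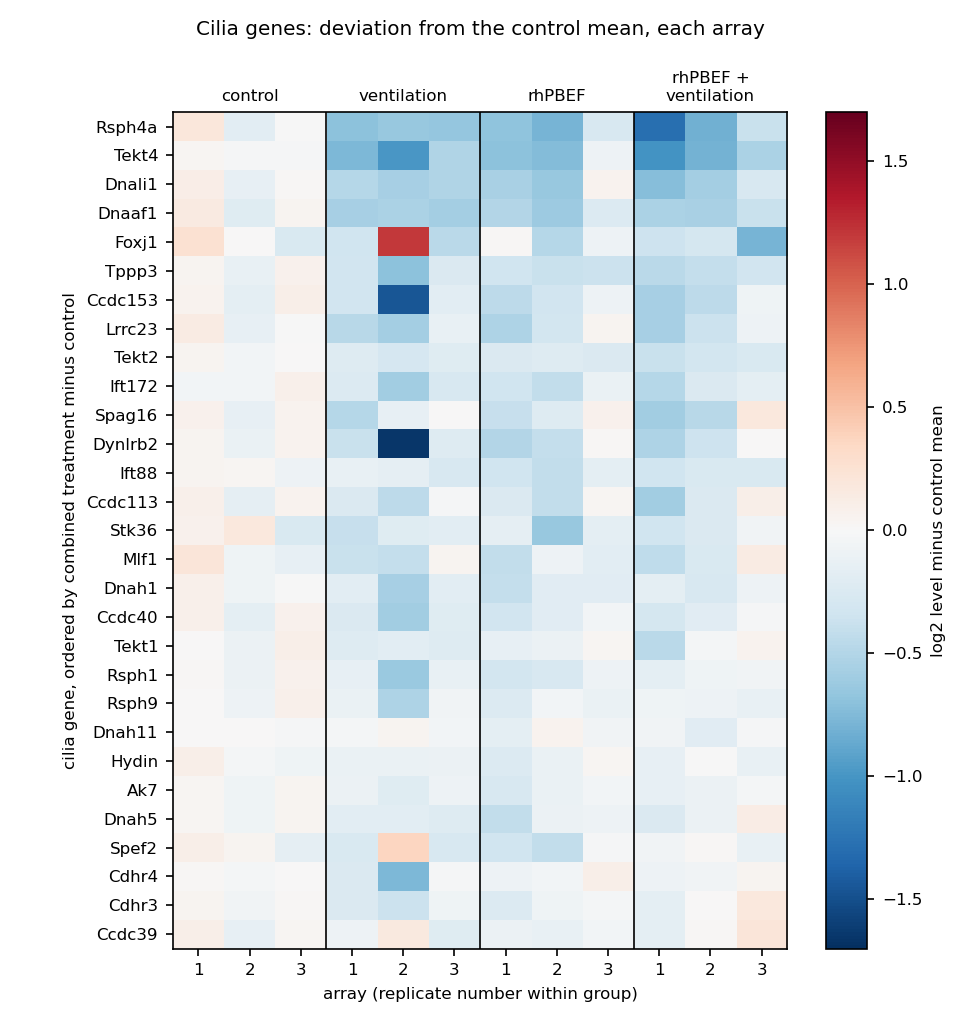
Each row is 1 of the 29 tested cilia genes and each column 1 of the 12 arrays; colour gives the log2 level minus the mean of the 3 control arrays (blue lower, red higher). Most treated arrays are blue, replicate 3 of both groups given rhPBEF is pale, and ventilation replicate 2 holds the lowest values (Dynlrb2 and Ccdc153) and the highest (Foxj1).

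Foxj1, the regulator at the head of the ciliated cell programme, did not separate rhPBEF or ventilated arrays from control arrays. It read 9.61, 9.35 and 9.08 in control replicates 1 to 3, and 9.0, 10.55 and 8.89 in the ventilated ones. The rhPBEF arrays stood at 9.37, 8.86 and 9.26, and those of the combined treatment at 9.0, 9.05 and 8.55. The combined group lay wholly below control by a narrow margin, the rhPBEF group overlapped it, and ventilation replicate 2 was the highest of the 12 arrays. Differences were -0.18 ± 0.37 (SE, n = 3 per group) for rhPBEF, 0.14 ± 0.37 for ventilation and -0.48 ± 0.37 for both, with limma adjusted p of 0.833, 0.871 and 0.430. Without ventilation replicate 2 the ventilation difference was -0.40, with an adjusted p of 0.509, and without ventilation replicate 3 it was 0.43. The 95% interval of the combined difference ran from -1.28 to 0.33.

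Among radial spoke genes, Rsph4a, a protein of the spoke head, fell most of all members in the combined treatment. Control arrays read 7.56, 7.19 and 7.35, and ventilated arrays 6.66, 6.72 and 6.71. Under rhPBEF it read 6.69, 6.57 and 7.09, and under both treatments 6.08, 6.55 and 6.98. All 9 treated arrays lay below the lowest control array, with replicate 3 highest in both groups given rhPBEF. It fell by 0.83 ± 0.20 in the combined treatment (limma adjusted p = 0.0343), so that the linear level fell by 43.7%. The differences were -0.67 ± 0.20 for ventilation (adjusted p = 0.194) and -0.58 ± 0.20 for rhPBEF (adjusted p = 0.180), neither past the threshold.

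The other spoke proteins did not pass. Rsph1 had a control mean of 9.54 and differed by -0.22 with rhPBEF, -0.30 with ventilation and -0.10 with both. Rsph9, also of the spoke head, had a control mean of 9.05 and differences of -0.13, -0.23 and -0.10. Lrrc23, a spoke protein, had a control mean of 9.31 and differences of -0.26, -0.39 and -0.34. Of these 3 genes, Rsph1 alone had all ventilated arrays below all control arrays.

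The genes of the dynein arms gave 1 call. Dnaaf1, a cytoplasmic factor that helps preassemble dynein arms, read 7.25, 6.90 and 7.15 in control and a tight 6.53, 6.56 and 6.52 in ventilation. With rhPBEF it read 6.59, 6.48 and 6.86, and with both 6.55, 6.55 and 6.72. No treated array reached the lowest control value. It fell by 0.49 ± 0.11 with both treatments (limma adjusted p = 0.0304), and its linear level fell by 28.8%. The differences of -0.56 ± 0.11 for ventilation and -0.45 ± 0.11 for rhPBEF had adjusted p of 0.110 and 0.0888, the lowest of the 29 genes in either comparison. A dimmer probe set of Dnaaf1, with a 12-array mean of 5.28, differed by only -0.13 with ventilation, 0.02 with rhPBEF and -0.07 with both, so the probe sets of this gene disagree.

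Dnali1, an inner arm light chain, read 9.06, 8.82 and 8.98 in control, and 8.46, 8.38 and 8.44 in ventilation. The rhPBEF arrays read 8.39, 8.30 and 9.0, and the combined arrays 8.22, 8.37 and 8.68. Ventilated and combined arrays did not overlap control, but rhPBEF replicate 3 lay inside the control range. The differences were -0.52 ± 0.17 for ventilation, -0.38 ± 0.17 for rhPBEF and -0.52 ± 0.17 for both (limma adjusted p = 0.215, 0.268 and 0.0785). Its second probe set differed by -0.27, -0.26 and -0.31 in the same order.

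Dynein heavy chains, the motors themselves, differed less. Dnah1 of the inner arm had a control mean of 7.78 and differed by -0.31 with ventilation, -0.26 with rhPBEF and -0.17 with both, and all its treated arrays lay below control. Its other probe set, with a 12-array mean of 5.65, differed by -0.09, -0.14 and 0.03. Dnah5 of the outer arm had a control mean of 7.52 and differences of -0.20, -0.20 and -0.07. Dnah11, also an outer arm chain, had a control mean of 7.81 and differences of -0.02, -0.05 and -0.09. None of these chains passed the threshold in any comparison.

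The outer arm intermediate chains Dnai1 and Dnai2 had no probe set under those symbols. The RefSeq gene table lists them as synonyms of Dnaic1 and Dnaic2, which were measured and tested outside the member count. Dnaic1 read 7.59, 7.50 and 7.59 in control, 7.60, 7.52 and 7.35 in ventilation, 7.22, 7.07 and 7.36 with rhPBEF, and 7.17, 7.33 and 7.33 with both. Every array given rhPBEF lay below every control array, while the ventilated arrays overlapped control. Averaged over ventilation status, rhPBEF arrays were lower by -0.28 ± 0.07 (limma adjusted p = 0.0422), in a comparison where 2.06% of all genes passed in that direction. It did not pass there with arrays centred on their medians or quantile normalised, or with replicate number in the model. With single arrays left out it passed only without replicate 3 of the ventilation, rhPBEF or combined group. Dnaic2 differed by -0.46 with rhPBEF, -0.27 with ventilation and -0.29 with both, with groups that overlapped control. A dimmer probe set of Dnaic2, with a 12-array mean of 6.52, differed by only -0.02, -0.06 and -0.06. The other probe set of Dnaic1 differed by -0.37, -0.02 and -0.23 in the same order.

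Central pair genes gave no call. Spag16 had a control mean of 7.97 and differed by -0.18 with rhPBEF, -0.21 with ventilation and -0.30 with both. Hydin, a large protein of a central pair projection, had a control mean of 7.30 and differences of -0.10, -0.11 and -0.09. Spef2, of the same apparatus, had a control mean of 6.88 and differences of -0.26, -0.05 and -0.06. Stk36, a kinase needed for the central pair, had a control mean of 6.88 and differences of -0.32, -0.26 and -0.21. Its other probe set differed by 0.04, 0.01 and -0.05. The other probe sets of Spag16, with 12-array means of 5.79 or less, had differences from -0.09 to 0.10. Those of Hydin and Spef2 lay below 0 in each comparison with control.

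3 measured members lay below the filter level of 6.42 and were not tested. They were the central pair genes Spag6, with a 12-array mean of 3.42, and Spag17, with 5.27, and the dynein regulatory complex gene Iqcg, with 6.37. The lowest gene kept was Stk36, with 6.68. Spag17 differed by -0.40 with ventilation, -0.31 with rhPBEF and -0.26 with both, and Iqcg by -0.27, -0.38 and -0.23. Spag6 differed by 0.03, 0.06 and 0.08. All 29 tested genes also exceeded the filter level in their mean over the 9 treated arrays, so none was kept through the control arrays alone.

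Of the tektins, filament proteins within the tubule wall, Tekt2 and Tekt4 fell in the combined treatment and Tekt1 gave no call. Tekt2 is shown with part of its promoter because it had the lowest adjusted p of all members and carries an X-box there, the motif bound by RFX factors. Dynlrb2, a dynein light chain placed here with the transport genes, is shown beside it for the same motif. Capitals mark the match within each stretch, which is read 5′ to 3′ on the gene's strand from RefSeq, build GRCm38.p6.
Tekt2, chr4:126325693-126325729, minus strand: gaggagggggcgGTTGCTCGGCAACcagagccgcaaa
Dynlrb2, chr8:116504952-116504988, plus strand: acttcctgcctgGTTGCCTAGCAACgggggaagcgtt
The Tekt2 match lies 71 to 59 bases before 1 annotated start and 29 to 17 before another, and that of Dynlrb2 51 to 39 bases before its start. The Tekt2 match fits the motif on the strand opposite to the one shown, and that of Dynlrb2 on the strand shown. Both stretches lie outside annotated genes of that build.

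X-boxes were frequent near the starts of cilia genes. The pattern searched was GTNRCC, a short spacer of any bases and RGYAAC. In it N is any base, R is A or G, and Y is C or T. Both strands were searched from 250 bases before to 50 bases after each annotated start, a window of 300 bases. The X-box pattern matched in 6 of the 27 measured members with such a window, or 22.2%. These were Dynlrb2, Hydin, Lrrc23, Spag16, Spef2 and Tekt2. Of all 27025 genes with a window 1.75% had a match, and of the 10408 tested genes 2.07%. The forkhead motif TGTTTAC, of the kind Foxj1 can bind, matched in 2 of 27 members (7.41%, Ak7 and Mlf1) and in 4.05% of all genes. Of the 6 genes with an X-box, only Tekt2 passed the threshold in the combined treatment, where 5 of the 29 tested members (17.2%) did. The others also differed by less than 0 there: Lrrc23 by -0.34, Spag16 by -0.30, Dynlrb2 by -0.29, Hydin by -0.09 and Spef2 by -0.06. A match is a run of letters and not a shown binding site.

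Tekt2 moved little but evenly. It read 7.70, 7.61 and 7.66 in control, 7.44, 7.38 and 7.45 in ventilation, 7.42, 7.44 and 7.42 with rhPBEF, and 7.27, 7.34 and 7.4 with both. The groups given a treatment all stood clear of control. It fell by 0.32 ± 0.06 with both treatments (limma adjusted p = 0.0188). Differences of -0.23 ± 0.06 in either single treatment had adjusted p of 0.165 for ventilation and 0.112 for rhPBEF.

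Tekt4 moved further. Control arrays read 8.00, 7.95 and 7.95, ventilated arrays 7.21, 6.98 and 7.46, rhPBEF arrays 7.27, 7.24 and 7.89, and combined arrays 6.95, 7.17 and 7.43. All treated arrays were below control, rhPBEF replicate 3 by a small margin. It fell by 0.78 ± 0.18 with both treatments (limma adjusted p = 0.0304), and its linear level fell by 41.9%. The differences were -0.75 ± 0.18 for ventilation (adjusted p = 0.137) and -0.50 ± 0.18 for rhPBEF (adjusted p = 0.190). Tekt1 had a control mean of 7.51 and differed by -0.07 with rhPBEF, -0.21 with ventilation and -0.15 with both.

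Intraflagellar transport carries parts along the growing cilium. Dynlrb2 read 11.08, 10.91 and 11.10 in control and 10.65, 9.38 and 10.81 in ventilation. It read 10.54, 10.63 and 11.05 with rhPBEF and 10.51, 10.68 and 11.03 with both. Ventilated arrays were all below control, replicate 2 by far the most, while replicate 3 of both groups given rhPBEF lay inside the control range. The differences were -0.75 ± 0.31 for ventilation, -0.29 ± 0.31 for rhPBEF and -0.29 ± 0.31 for both, with limma adjusted p of 0.291, 0.663 and 0.580.

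Ift88 and Ift172, core subunits of the transport trains, had every treated array below every control array. Ift88 had a control mean of 8.54 and differed by -0.30 with rhPBEF, -0.19 with ventilation and -0.29 with both (limma adjusted p = 0.108, 0.309 and 0.0549). It was the gene nearest the threshold without passing it. Ift172 had a control mean of 9.13 and differences of -0.29, -0.36 and -0.30.

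The coiled-coil proteins Ccdc39 and Ccdc40 form the ruler that spaces dyneins along the tubule. Ccdc39 had a control mean of 8.28 and differed by -0.09 with rhPBEF, -0.04 with ventilation and 0.02 with both. Ccdc40 had a control mean of 8.18 and differences of -0.19, -0.35 and -0.17, and its ventilated arrays lay wholly below control. Neither passed in any comparison.

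Tppp3, a tubulin-binding protein abundant in ciliated cells, was the remaining gene past the threshold in the combined treatment. It read 12.49, 12.32 and 12.50 in control, 12.11, 11.74 and 12.19 in ventilation, 12.09, 12.06 and 12.07 with rhPBEF, and 11.98, 12.03 and 12.11 with both. No treated array overlapped control. It fell by 0.40 ± 0.11 with both treatments (limma adjusted p = 0.0483), and its linear level fell by 24.1%. The differences of -0.42 ± 0.11 for ventilation and -0.36 ± 0.11 for rhPBEF had adjusted p of 0.153 and 0.138.

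Ccdc153, another gene typical of ciliated cells, read 10.33, 10.10 and 10.37 in control and 9.94, 8.82 and 10.09 in ventilation. With rhPBEF it read 9.82, 9.95 and 10.18, and with both 9.70, 9.83 and 10.19. Only the ventilated arrays lay wholly below control, and replicate 2 stood far under the rest. Differences were -0.65 ± 0.28 for ventilation, -0.28 ± 0.28 for rhPBEF and -0.36 ± 0.28 for both, with limma adjusted p of 0.297, 0.627 and 0.431.

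The remaining genes were closer to control. Ak7, an adenylate kinase of the axoneme, had a control mean of 9.50 and differed by -0.14 with rhPBEF, -0.13 with ventilation and -0.09 with both. Mlf1 had a control mean of 8.53 and differences of -0.23, -0.25 and -0.18, and Ccdc113 a control mean of 6.99 and differences of -0.21, -0.24 and -0.25. The cadherin-related proteins differed with ventilation more than with rhPBEF in their values, Cdhr3 (control mean 8.21) by -0.23 against -0.11 and Cdhr4 (control mean 9.41) by -0.34 against -0.01. In the combined treatment they differed by 0.01 and -0.04. No gene of this group passed.

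**Figure D2:**
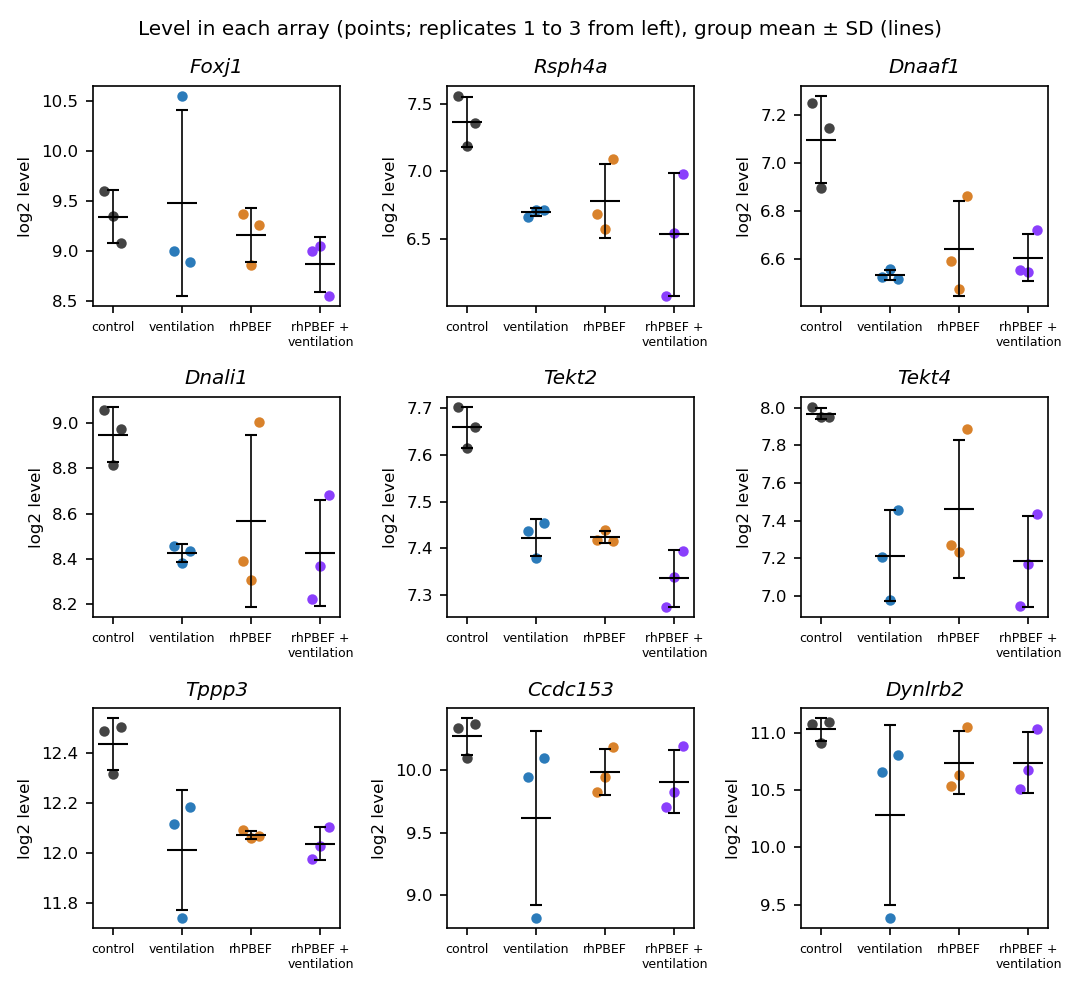
Points give the log2 level of 9 cilia genes in each array, with replicates 1 to 3 from left to right, and lines the group mean ± SD (n = 3). Axes differ between panels. Rsph4a, Dnaaf1, Tekt2, Tekt4 and Tppp3 have every treated point below the lowest control point; Foxj1 has 1 ventilated point at 10.55, above all others.

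**Figure D3:**
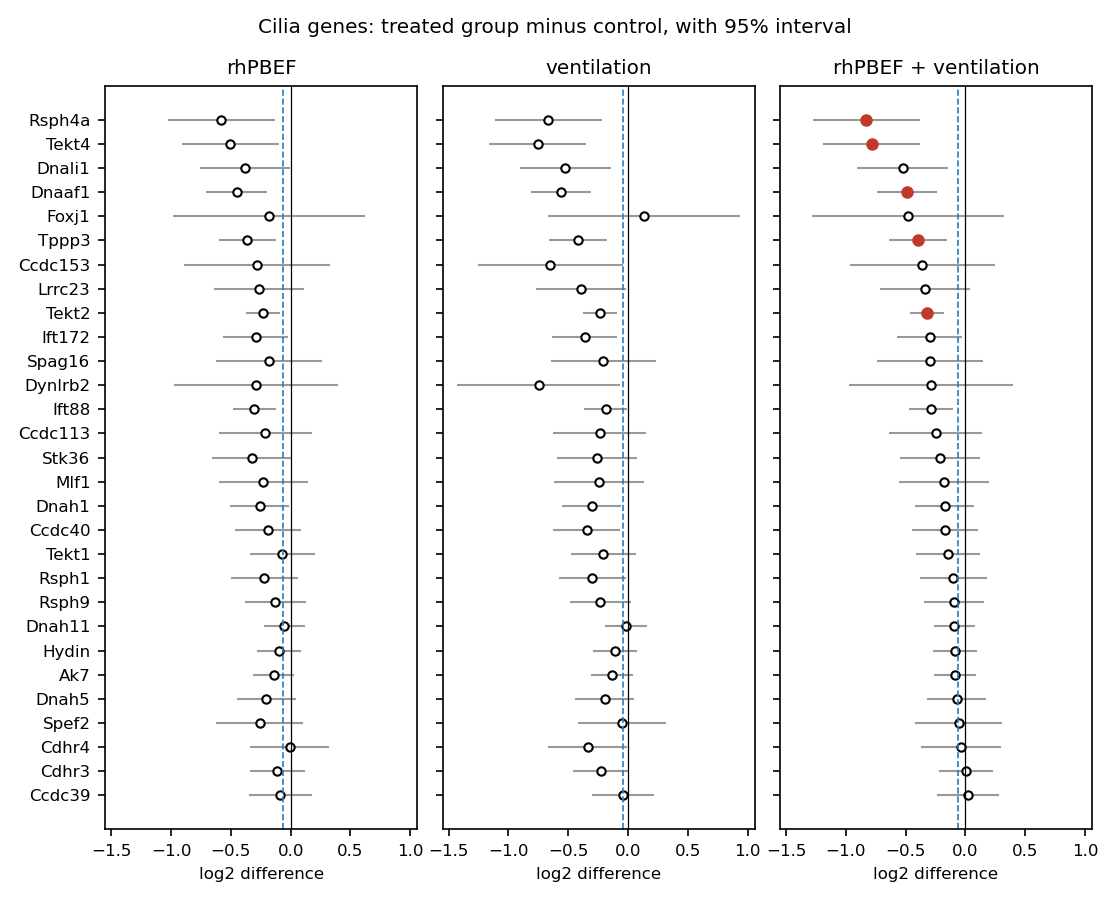
Points give the log2 difference of each of the 29 tested genes from control, with bars for the 95% interval. Filled red points passed the limma threshold and the dashed blue line is the median of all genes tested. The 5 filled points, at -0.83 to -0.32, are all in the combined treatment.

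How far the 5 calls rested on single arrays was examined by leaving out each in turn. Without control replicate 1, control replicate 3, or replicate 1 or 2 of the combined group, 0 of the 29 genes passed for the combined treatment. Without control replicate 2, 1 gene (Dnaaf1) passed. Without replicate 3 of the combined group 8 genes passed, and without ventilation replicate 2 or rhPBEF replicate 3 there were 6. Over all 12921 genes tested, the number past the threshold also ran from 152 to 2498 as single arrays were left out. The median difference of the 29 genes stayed between -0.30 and -0.15 throughout. For rhPBEF alone 1 gene passed without rhPBEF replicate 3 (Dnaaf1), beside 135 of all genes. Without ventilation replicate 2, 1 gene passed (Tppp3), beside 265 of all genes. Tppp3 no longer passed, and the other 4 genes did, with arrays centred on their medians, with quantile normalisation, without a filter, with the most variable probe set, or without ventilation replicate 1, rhPBEF replicate 1 or rhPBEF replicate 2. Fitting only the control and combined groups left out Rsph4a and kept the other 4.

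The factorial layout allowed each treatment to be averaged over the other. Ventilated arrays against the rest gave 0 of 29 genes past the threshold, beside 0.549% of all genes (0.302% lower and 0.248% higher), with a median of -0.14 against -0.02 for all genes tested. The largest differences were in Tekt4 (-0.52 ± 0.13, limma adjusted p = 0.114), Rsph4a (-0.46 ± 0.14, 0.178), Dynlrb2 (-0.37 ± 0.22, 0.413), Ccdc153 (-0.36 ± 0.20, 0.372) and Dnali1 (-0.33 ± 0.12, 0.222). Averaged over ventilation status, rhPBEF gave 0 of 29 past the threshold, beside 4.67% of all genes (2.62% in the higher direction), with a median of -0.08 against -0.04. At an unadjusted p under 0.05, 6 of the 29 (20.7%) passed in the ventilation average and 4 (13.8%) in the rhPBEF average, beside 16.6% and 23.7% of all genes. Tekt2, at -0.16 ± 0.05, and Ift88, at -0.20 ± 0.06, came nearest in that comparison, with adjusted p of 0.0706 and 0.0747. Without replicate 3 of the combined group, Rsph4a and Tekt4 passed in the ventilation average, and Rsph4a and Tekt2 in the rhPBEF average. In the latter, Ift88 passed without rhPBEF replicate 3 and Tppp3 without ventilation replicate 2. As single arrays were left out, the number of all genes past the threshold also moved. It ran from 6 to 555 in the ventilation average and from 234 to 1584 in the rhPBEF average.

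The interaction asks whether the difference made by ventilation changed with rhPBEF. None of the 29 genes passed, nor did any other gene (0% of all genes by limma). At an unadjusted p under 0.05, 5 of the 29 (17.2%) passed, and 288 of all genes (2.23%). The median interaction of the cilia genes was 0.31, against 0.05 over all genes tested, and 27 of the 29 (93.1%) lay above 0, beside 62.6% of all genes. For a gene lower in both single treatments, a value above 0 means that the combined difference was less negative than the sum of the single ones. Dnaaf1 had an interaction of 0.53, with a 95% interval from 0.17 to 0.88 and an adjusted p of 0.998. For Foxj1 it was -0.43, with an interval from -1.57 to 0.70.

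Single arrays of a group differed in how low their cilia genes stood. Ventilated replicates 1 to 3 had 28, 24 and 22 of the 29 genes below the lowest control array, and their mean over the genes differed from the control mean by -0.30, -0.40 and -0.21. The rhPBEF arrays had 26, 25 and 12 such genes and differences of -0.33, -0.31 and -0.08. Combined arrays had 27, 21 and 13, with differences of -0.39, -0.27 and -0.11. Of all genes tested, 34.9%, 49.8% and 36.0% lay below the lowest control in the 3 ventilated arrays, 44.3%, 47.7% and 45.8% in the rhPBEF arrays, and 50.1%, 45.9% and 41.5% in the combined arrays. The share of cilia genes was 41.4% in rhPBEF replicate 3 and 44.8% in combined replicate 3, both near that of all genes, and 72.4% or more in the other treated arrays. By the mean over the genes, replicate 3 was thus nearest to control in each treated group, and closest in those given rhPBEF. The spread of this mean between arrays of a group was 0.12 (pooled SD).

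Ventilation replicate 2 stood apart in another way. In it 11 of the 29 genes were below the other 11 arrays, among them Dynlrb2, Ccdc153, Cdhr4, Rsph1 and Tppp3, and Foxj1 and Spef2 were above them. Over all genes tested 24.7% were below and 15.5% above in that array. Without this array the median ventilation difference of the 29 genes was -0.22, against -0.25 with it, the smallest size when single arrays were left out. Without ventilation replicate 3 it was -0.34.

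The genes varied together within groups. After each group mean was removed, the deviation of a gene over the 12 arrays correlated with the mean of the other 28 at a median r of 0.67, against 0.10 for genes outside the list. The coefficient was over 0.5 for 22 of 29 genes and highest for Lrrc23, at 0.95. It was lowest for Foxj1, at -0.52, and without ventilation replicate 2 still -0.36. These are descriptions over 12 arrays that share tissue makeup and processing, with no test.

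Other genes of the cilium were counted from lists. Of 73 tested genes for other axoneme and assembly proteins, 4 (5.48%) fell and 1 (1.37%) rose in the combined treatment, where 4.86% of all genes fell and 3.93% rose. The share that fell was thus near the background. Lrrc36 fell by 0.65, Ccdc181 by 0.52, Dnal1, a light chain of the outer arm, by 0.34 and Spef1, a central pair protein, by 0.34. Cfap69, another central pair protein, rose by 0.87. Medians were -0.16 for rhPBEF, -0.17 for ventilation and -0.14 for both, and no gene passed in either single treatment. In the rhPBEF average Cfap69 rose by 0.69 and Cfap410 fell by 0.23. That was 1.37% of the 73 genes in each direction, below the 2.62% of all genes that rose and the 2.06% that fell.

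Among 40 further transport genes 5 (12.5%) fell in the combined treatment and none rose, beside the same 4.86% and 3.93% of all genes. Wdr19 fell by 0.88 and Traf3ip1 by 0.77, and both belong to the transport trains, as does Ttc21b, which fell by 0.64. Bbs9, of the complex that ferries membrane proteins, fell by 0.39, and the motor subunit Kif3a by 0.36. Traf3ip1, Kif3a and Ttc21b also fell in the rhPBEF average (7.5% of the 40, beside 2.06% of all genes). Medians were -0.23 for rhPBEF, -0.18 for ventilation and -0.27 for both.

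Of 21 tested regulators of cilium formation 3 (14.3%) fell in the combined treatment, beside 4.86% of all genes. Myb, which acts early in ciliated cell formation and also in blood cells, fell by 1.20. Rfx2, one of the factors that bind the X-box, fell by 0.61, and the Notch ligand Jag2 by 0.40. In the rhPBEF average Myb fell by 0.65 (4.76% of the 21, beside 2.06% of all genes). Medians were -0.14, -0.05 and -0.24. The genes named from these 3 lists were chosen for having passed, after their values were seen.

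**Figure D4:**
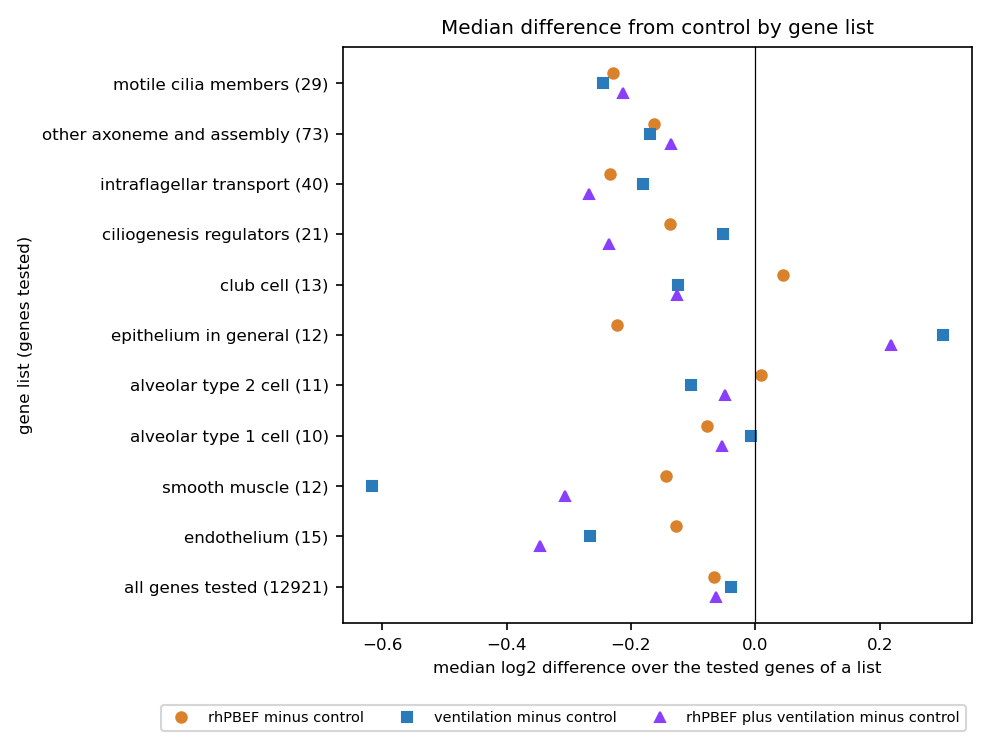
Symbols give the median log2 difference from control over the tested genes of each list, for rhPBEF, ventilation and both. Cilia members lie at -0.25 to -0.21 and all genes tested at -0.07 to -0.04; of the lists plotted, smooth muscle in ventilation lies lowest, at -0.62.

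Levels of other cell types moved alongside, and their part in the cilia values was not tested. The summed linear level of the 29 cilia genes ran from 93.3% to 104% of the control mean in control arrays. It was 69.0% to 86.4% in ventilation, 78.9% to 90.8% with rhPBEF and 75.5% to 89.6% with both. Club cells, the secretory neighbours of ciliated cells, had 13 tested markers that summed to 90.6% to 98.4%, 95.7% to 110% and 91.7% to 102% in the same groups. In that list Cckar fell by 2.09 in the combined treatment (7.69% of the 13, beside 4.86% of all genes) and no gene passed in a single treatment. A sum is set mostly by the brightest genes. The mean log2 level of the same club cell markers differed from control by -0.47, -0.34 and 0.00 in the 3 combined arrays, where the cilia genes differed by -0.39, -0.27 and -0.11. With rhPBEF the club cell values were -0.31, -0.02 and 0.13, beside -0.33, -0.31 and -0.08. With ventilation they were -0.29, -0.21 and -0.06, beside -0.30, -0.40 and -0.21. In the combined treatment the median club cell difference was -0.13, and 5 of 13 genes lay above 0.

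Neutrophil markers rose. In the 12 tested markers the sum was 82.0% to 114% of the control mean in control arrays, 173% to 824% in ventilation, 501% to 707% with rhPBEF and 411% to 1019% with both. With rhPBEF 4 of 12 rose (S100a9 by 3.48, S100a8 by 3.05, Il1r2 by 2.92 and Clec4e by 3.65), with both 8 of 12, and with ventilation 0. Of all genes 0.936% rose with rhPBEF, 3.93% with both and 0% with ventilation. With ventilation 12 of 12 markers nevertheless lay above 0 (median 2.16), where 41.0% of all genes did. No marker had a level of 0, since the lowest level in the log2 table was 2.99.

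Endothelial markers, 15 of them tested, summed to 65.1% to 82.1% of control in ventilation, 86.2% to 92.7% with rhPBEF and 71.2% to 85.3% with both. In the combined treatment 5 of these (33.3%) fell, beside 4.86% of all genes. For 12 general epithelial markers the medians were -0.22 for rhPBEF, 0.30 for ventilation and 0.22 for both. With rhPBEF Elf3 rose by 0.97 and Krt19 fell by 0.72, where 0.286% of all genes fell. Alveolar markers had medians of 0.01, -0.10 and -0.05 for type 2 and -0.08, -0.01 and -0.05 for type 1 cells, over genes that went both ways. In the combined treatment type 2 markers ran from -0.87 to 0.43, and Chil1, at the upper end, rose (limma adjusted p = 0.0327).

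Smooth muscle markers lay below 0 for 12 of 12 genes with ventilation (median -0.62) and with both (-0.31), and for 10 of 12 with rhPBEF (-0.14). Cardiac muscle markers did so for 10 of 10 in every comparison with control, with medians of -0.47 for rhPBEF, -0.64 for ventilation and -0.55 for both, and adipocyte markers for 5 of 5, with medians of -0.44, -1.17 and -0.73. These medians were lower than those of the cilia genes, except smooth muscle with rhPBEF. None of these muscle genes passed, and no cardiac marker had an unadjusted limma p under 0.05 in any comparison with control. Of all genes tested, 65.7% lay below 0 with rhPBEF, 59.0% with ventilation and 61.8% with both. Skeletal muscle RNA differed between single arrays. The 6 tested skeletal muscle markers reached 1292% of the control mean in rhPBEF replicate 2 and 668% in ventilation replicate 3. Without both arrays Dnaaf1, Rsph4a, Tekt2 and Tekt4 still passed in the combined treatment and Tppp3 did not.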

How the data were processed

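The deposited table holds log2 levels per probe set and array, which the authors had normalised before submission. The submitters' processing notes name MAS5 and GCRMA, without role or version, so the normalisation of the table is not given in the sources used here. Groups came from sample titles and treatment protocols; a description field that names control animals throughout was set aside. Of 45101 probe sets 64 controls were left out, and 34945 carried 1 gene symbol in the platform annotation.

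For every gene the probe set with the highest 12-array mean was used, if above the 40th percentile (6.42). A model of 4 group means was fitted to all 12 arrays with limma 3.58.1 in R 4.3.3 (lmFit, eBayes; 8 residual and 2.99 prior degrees of freedom). Benjamini-Hochberg adjustment ran over 12921 genes, with a threshold of 0.05, and the fit was tested on simulated data. An exact two-sided test of 3 against 3 arrays cannot go below 0.1. The number of arrays limits the precision.

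The members and gene lists, written from general knowledge, were chosen with earlier results of these data known. Values in every array are given for Foxj1, for members past the threshold in any comparison, and for the 5 with the largest ventilation average; other members have a level and differences. The 10 genes outside the list that vary most like the member mean are named too, as are listed genes past the threshold in a single treatment or in the ventilation average, at most 6 per list. Alternatives varied the normalisation, the filter, the choice of probe set, the variance model, the replicate block and the arrays used. Replicate numbers are shared between groups, and 7 of 18 same-numbered pairs deviated together (r over 0.1). Their r ran from -0.21 to 0.53, and that of other pairs from -0.53 to 0.33. For 6 of the 12 arrays the closest array of another group had the same number. The labels name no batch, and the main fit did not treat same-numbered arrays as pairs. Promoter windows came from RefSeq, and figures were drawn with matplotlib 3.10.9.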

Additional observations from a re-analysis of the deposited data

How the results depend on the processing

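Every median difference of the 29 cilia genes kept its sign and moved by less than the spread between arrays of a group (0.12) under all alternatives. Leaving out single arrays gave medians of -0.30 to -0.19 for rhPBEF, -0.34 to -0.22 for ventilation, -0.30 to -0.15 for both, -0.18 to -0.09 and -0.12 to -0.04 for the ventilation and rhPBEF averages, and 0.22 to 0.41 for the interaction. Cilia genes past the threshold then numbered 0 to 1 for rhPBEF, 0 for ventilation, 0 to 8 for both, 0 to 2 in each average and 0 for the interaction. All genes past it numbered 44 to 358, 0 to 43, 152 to 2498, 6 to 555, 234 to 1584 and 0 to 4 in the same order. Foxj1 in ventilation changed sign, to -0.40 without ventilation replicate 2, and reached 0.43 without ventilation replicate 3. Of the 87 differences of the 29 genes from control, 9 others changed sign without 1 array, in 7 genes (Dnah5, Dnah11, Spef2, Tekt1, Ccdc39, Cdhr3 and Cdhr4) with values of -0.15 to 0.02 over all arrays.

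Fitting only the groups compared gave 636 genes for rhPBEF, with 1 cilia gene (Tppp3), and 0 for ventilation, where the fit to all arrays gave 158 and 1. Without the 2 arrays high in skeletal muscle genes there were 69 for rhPBEF, 34 for ventilation and 2 for the interaction. For ventilation a variance trend or the mean of probe sets gave 4 genes and the most variable probe set 3. A filter at the 60th percentile left 1 cilia gene past the threshold for both treatments (Tppp3), since the other 4 were then not tested. Without a filter the ventilation average gave 40 genes, against 71. Counting Dnaic1 and Dnaic2 as members, an alternative added after seeing the data, gave 1 cilia gene in the rhPBEF average. With the replicate block, 6 cilia genes passed for both treatments (Dnali1 added) and 0 genes for ventilation. Centring arrays on their medians turned the combined treatment's 508 higher and 628 lower genes into 525 and 407, and the rhPBEF average's 338 and 266 into 378 and 167; for rhPBEF 121 and 37 became 138 and 19. The causes were not tested. Levels near the filter have no detection call, so signal there could not be told from background.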

Other observations

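The 10 genes outside the member list whose deviations within groups followed the mean of the cilia genes most closely were Nkain4, Sdha, Acot13, Trmt2b, Ptgr2, Stmnd1, Acox2, Tmem237, Ccdc34 and Hs6st2, with r from 0.95 to 0.94 over the 12 arrays. None of these 10 was in the 3 lists of other cilia genes. Of the 100 nearest genes 7 were: Enkur, Bphl, Drc3, Iqca, Ttc26, Nme5 and Wdr35. There were 134 such genes among the 12921 genes tested. Listed genes were matched by symbol only, so any annotated under another symbol were not counted. Sdha encodes a subunit of mitochondrial succinate dehydrogenase and Tmem237 a protein of the ciliary transition zone. The coefficients describe arrays that share tissue makeup and normalisation, and carry no test.

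In the ventilation average the endothelial genes Sox18 (-1.14), Eng (-0.60) and Egfl7 (-0.52) fell and the keratin Krt18 rose by 0.61. That was 20% of the 15 endothelial markers, beside 0.302% of all genes that fell. For the 12 epithelial markers it was 8.33%, beside 0.248% of all genes that rose. In the rhPBEF average Krt18 fell by 0.42, and 5 of the 12 epithelial markers passed in all, beside 4.67% of all genes. Krt19 (-0.64), Krt7 (-0.33) and Esrp1 (-0.27) fell too and Elf3 rose by 0.71. There the club cell list's Hp, an acute-phase protein, rose by 0.45, and the type 2 cell list's Chil1 rose by 0.48. These were 7.69% and 9.09% of their lists, beside 2.62% of all genes. Of the 5 tested adipocyte markers Cidec fell by 1.04 and Pck1 by 1.17 in the combined treatment, where 4.86% of all genes fell. The tested markers of basal cells (4), goblet cells (7), neuroendocrine cells (2), airway cartilage (4), smooth muscle (12), skeletal muscle (6) and cardiac muscle (10) had no gene past the threshold in the comparisons with control by limma, whatever their direction.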
